A study of Mus musculus with 34 samples.

Results

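The regions described here had a called peak of the acetylation mark H3K9ac in every library of growth-restricted mice and in no library of control mice. They were chosen by the H3K9ac calls themselves: all peaks of the 8 H3K9ac lists were merged, and a merged region was kept if a peak of at least 1 bp lay in all 4 FGR lists and no peak lay in any Ctrl list. This gave 9586 of 151724 merged regions, called FGR-only regions below. The H3K9ac difference between FGR and Ctrl at these regions is therefore the selection itself and is given as a description with no test, whereas H3K27ac, H3K4me3 and H3K9me3 were not used by the rule. FGR-only regions covered 9.18 Mb of the mm10 genome, with a median length of 848 bp, against 1877 bp for the 16906 regions called in all 8 lists and 443 bp for all merged regions.

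The tested mice are named FGR in the labels of a series on intrauterine growth restriction, and Ctrl mice served as their reference. Microglia of the hippocampus, the resident macrophages of that brain region, came in both groups from mice with the genotype Tmem119-tdTomato+/-, a reporter that makes microglia fluorescent; the labels give an age of 3 weeks after birth for replicates 1 to 3 and no age for replicate 4. Each mark was profiled by ULI-NChIP-seq, an immunoprecipitation of unfixed chromatin from small numbers of cells, in 4 FGR and 4 Ctrl libraries. The labels do not say whether libraries came from separate animals or from pools, or how growth restriction was produced, so every p-value measures only the spread between these libraries, which may be technical.

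H3K9ac is laid down by histone acetyltransferases and removed by deacetylases, and in active chromatin it sits at promoters and enhancers together with H3K27ac, with H3K4me3 at the promoter. H3K9me3 marks heterochromatin, and a lysine cannot carry the methyl and the acetyl group at the same time. If both modifications are present at a shared place, they sit on different histone tails, alleles or cells. Whether shared peaks of H3K9ac and H3K9me3 reflect both modifications was not tested. Promoters rich in CpG dinucleotides belong to housekeeping genes, which are active in most cells, and to developmental regulators, which most cell types keep silent through Polycomb complexes.

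The FGR and Ctrl libraries stood apart in several properties beside the peaks themselves. H3K9ac lists held 54853 to 87128 peaks in FGR and 42220 to 47729 in Ctrl, and the median peak width was 407 to 459 bp in FGR and 634 to 696 bp in Ctrl. The lowest local background solved from the fold and p of each peak, a relative measure of depth, was 0.523 to 0.659 fragments in FGR and 2.35 to 2.63 in Ctrl. No library of either group lay within the other group's range of these 3 measures, so library properties and group cannot be told apart. By shared bases, each FGR H3K9ac list overlapped the other FGR H3K9ac lists by 52.9 to 89.7% of its length, the FGR H3K4me3 lists by 39.3 to 53.4%, the FGR H3K27ac lists by 25.6 to 36.2%, the Ctrl H3K9ac lists by 40.3 to 52.3% and the Ctrl H3K27ac lists by 41.5 to 52.1%. The FGR H3K9ac lists thus shared more bases with the H3K27ac lists of Ctrl than with those of FGR. The FGR lists had 100 to 192 H3K9ac peaks on chromosome Y and the Ctrl lists 10 to 17, and 39 FGR-only regions lay there. Labelled tissue and markers went together for H3K27ac, which lay within 1 kb of an end of 25 to 27 of 27 homeostatic microglia genes in FGR libraries and of 26 to 27 in Ctrl libraries.

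Promoters that were overlapped by FGR-only regions included those of Hox genes, of other developmental transcription factors, of Eph receptors, of frizzled receptors and of neuronal genes. For each of these lists, the 200 bases before the start of 1 gene are printed to show how CpG content varied, with CG in capitals. The gene is the one whose bases were overlapped by the best ranked FGR-only region, among genes in the RefSeq promoter table. That of Sall1, a transcription factor of microglial identity whose promoter carried H3K9ac in all 8 lists, stands at the end for comparison. All 6 are RefSeq sequences of GRCm38.p6, the assembly behind mm10, written 5′ to 3′ on the strand of the gene.
Hoxd3 (chr2:74711793-74711992, plus strand): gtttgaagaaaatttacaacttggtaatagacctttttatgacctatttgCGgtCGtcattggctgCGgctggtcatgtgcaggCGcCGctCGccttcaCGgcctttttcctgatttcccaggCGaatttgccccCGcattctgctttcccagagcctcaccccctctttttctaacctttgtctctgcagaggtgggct
Ascl2 (chr7:142969265-142969464, minus strand): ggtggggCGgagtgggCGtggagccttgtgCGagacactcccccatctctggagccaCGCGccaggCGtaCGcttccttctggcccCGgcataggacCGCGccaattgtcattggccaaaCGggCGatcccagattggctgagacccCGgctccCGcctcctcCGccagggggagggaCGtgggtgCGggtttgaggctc
Ephb2 (chr4:136836013-136836212, minus strand): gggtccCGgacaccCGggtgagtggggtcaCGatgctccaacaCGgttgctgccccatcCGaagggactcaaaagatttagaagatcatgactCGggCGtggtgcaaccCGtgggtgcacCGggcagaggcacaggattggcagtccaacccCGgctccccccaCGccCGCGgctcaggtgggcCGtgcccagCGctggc
Fzd9 (chr5:135251048-135251247, minus strand): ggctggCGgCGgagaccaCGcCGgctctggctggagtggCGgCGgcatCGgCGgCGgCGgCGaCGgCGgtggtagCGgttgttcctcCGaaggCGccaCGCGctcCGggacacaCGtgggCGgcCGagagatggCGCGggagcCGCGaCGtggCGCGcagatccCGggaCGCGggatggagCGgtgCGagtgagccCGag
Slc17a7 (chr7:45163721-45163920, plus strand): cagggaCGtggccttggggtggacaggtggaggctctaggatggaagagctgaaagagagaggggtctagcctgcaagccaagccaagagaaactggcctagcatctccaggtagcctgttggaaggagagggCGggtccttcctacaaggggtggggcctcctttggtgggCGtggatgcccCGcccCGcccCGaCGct
Sall1 (chr8:89044163-89044362, minus strand): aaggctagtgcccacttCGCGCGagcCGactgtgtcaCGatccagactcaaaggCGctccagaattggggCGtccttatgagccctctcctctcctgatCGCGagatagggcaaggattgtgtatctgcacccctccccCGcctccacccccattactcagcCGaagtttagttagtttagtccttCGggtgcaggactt
Within these 200 bases, Fzd9 had 35 CG dinucleotides, Ascl2 17, Ephb2 15, Hoxd3 9 and Slc17a7 7, and Sall1 had 12.

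FGR-only regions were peaks near the middle of the FGR lists in height, below the regions called in all 8 lists. Their median fold enrichment, the authors' value per peak, was 6.21, 6.15, 5.79 and 5.91 in FGR replicates 1 to 4, and the median pileup at the summit was 10, 10, 8 and 8 fragments. The 4 FGR libraries thus gave nearly the same height. Over all peaks of these lists the median fold was 5.4 to 5.91. At regions called in all 8 lists it was 13.8 to 17.0 in the FGR libraries, with a median pileup of 21 to 28 fragments. Regions with peaks in 3 FGR lists and no Ctrl list, just outside the rule, numbered 9630 and were shorter, with a median of 581 bp, and of lower rank, with a mean percentile of −log10 p within the FGR lists of 37.9 against 53.9 for FGR-only regions. FGR replicate 3 was the missing library in 4793 of them and FGR replicate 1 in 528. A further 1270 regions, with 4 FGR lists and 1 Ctrl list, ranked at 60.5. A Ctrl H3K9ac peak lay within 1 kb of 1042 FGR-only regions (10.9%) and within 5 kb of 33.5%.

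The rule was also applied without 1 library of each group, so that the calls of the left-out libraries could be looked up. Of regions chosen without replicate 1 of each group, 94.8% had a peak in the left-out FGR library and 2.28% in the left-out Ctrl library. For replicate 2 the shares were 85.3% in FGR and 4.88% in Ctrl, for replicate 3 they were 67.4% in FGR and 3.87% in Ctrl, and for replicate 4 they were 78.8% in FGR and 1.82% in Ctrl. Among all merged regions of the remaining libraries, 31.3 to 45.9% had a peak in the left-out FGR library and 24.5 to 30.4% in the left-out Ctrl library. The share in the left-out FGR library was above that of all regions for each of the 4 replicates, and lowest for replicate 3. All merged regions include 55175 called in 1 FGR list and no Ctrl list, so a gap was built into this comparison. It is a description of the calls and no support for a difference between the groups. The number of FGR-only regions itself depended on the length of the lists: with all 8 lists cut to the length of the shortest it was 4060, and 94.6% of those overlapped an FGR-only region of the full lists, while 3839 of the full set overlapped one of them. Without FGR replicate 3 the rule gave 14489 regions.

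FGR-only regions were spread over gene ends, gene bodies and gene deserts. Of the 9586, 1725 (18%) lay within 1 kb of an end of a protein-coding gene, 4067 (42.4%) inside a gene and 1334 (13.9%) over 100 kb from any gene. The same shares were 57.2, 26.8 and 1.48% for regions called in all 8 lists and 14.8, 54.1 and 5.66% for all merged regions. Against all merged regions, FGR-only regions thus had fewer inside genes and more far from genes, while regions shared by all 8 libraries were mainly at gene ends. Chromosome X held 346 of them (3.61%), against 1.48% of all merged regions.

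Split by the marks that overlapped them, FGR-only regions fell into groups with different positions. H3K4me3 was present in all 4 FGR lists at 1476 (15.4%), against 19.4% of all merged regions. Of those 1476, 51.2% lay at a gene end and 3.52% over 100 kb from a gene. H3K9me3 was present in all 3 FGR broad lists at 2106 (22.0%), against 2.61% of all merged regions. Of those 2106, 2.09% lay at a gene end and 37.5% over 100 kb from a gene. Only 70 regions (0.73%) had both marks in all these lists, against 0.0989% of all merged regions. At 3752 regions (39.1%) none of the other marks was called in any list, against 53.6% of all merged regions. Of those 3752, 59.0% were inside genes. Promoter-like and heterochromatin-marked FGR-only regions were thus largely separate sets.

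**Figure D1:**
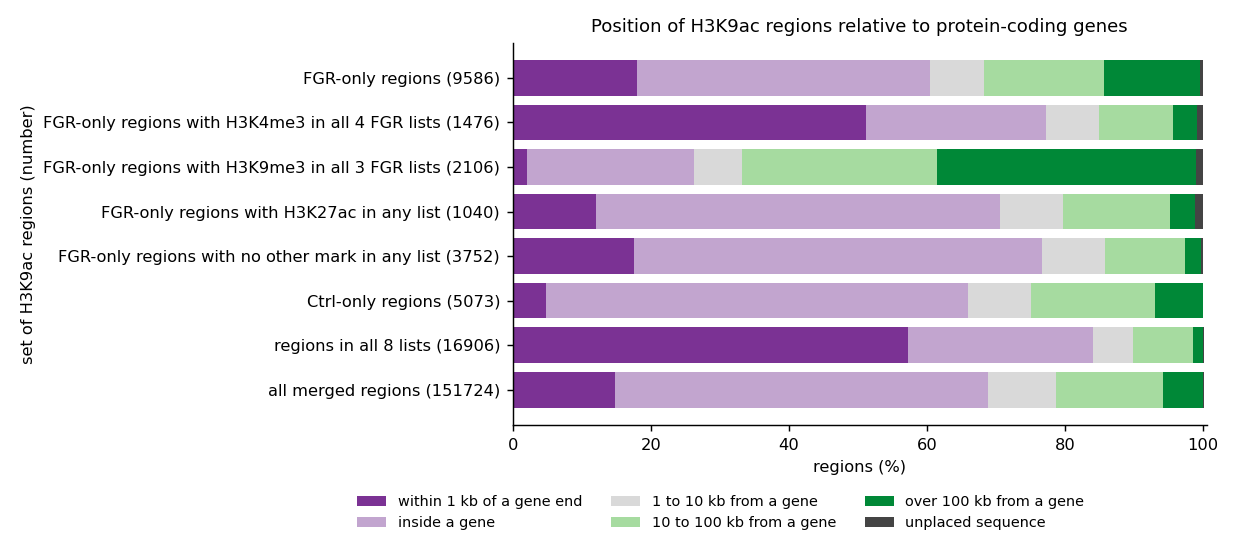
Position of H3K9ac regions relative to protein-coding genes, as the percent of regions (x axis) in each set (y axis, number of regions in brackets). FGR-only regions with H3K4me3 lie mostly at gene ends (51.2%), and those with H3K9me3 mostly over 10 kb from a gene.

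In the FGR lists, H3K9me3 overlapped a larger share of FGR-only regions than of H3K9ac regions in general. With all broad lists cut at a −log10 q of 1.3, H3K9me3 peaks overlapped 27.2, 29.0 and 29.3% of FGR-only regions in FGR replicates 1 to 3, against 0.156, 0.188 and 0.282% in Ctrl replicates 1 to 3. In the same FGR lists the share was 0.254 to 0.308% at regions called in all 8 H3K9ac lists and 4.04 to 4.50% at all merged regions. The overlap is also visible from the other side: of 5289 regions called in all 3 FGR H3K9me3 lists, 2152 (40.7%) had H3K9ac in all 4 FGR lists and 26 (0.492%) in all 4 Ctrl lists, while 127 (2.4%) had H3K4me3 in all 4 FGR lists and 55 (1.04%) had H3K27ac in all 4. H3K9ac was therefore the mark that shared places with H3K9me3 in FGR libraries. Since cells were pooled in each library, a lower share of cells and less of a mark per cell cannot be told apart.

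The Ctrl H3K9me3 lists differed from those of FGR in how they were cut. As deposited, the Ctrl lists held 345501 to 492938 peaks and reached a −log10 q of 0, whereas 70 to 78 peaks per list passed a −log10 q of 1.3; the FGR lists held 15522 to 22903 peaks, of which 14008 to 16506 passed. In the lists as deposited, H3K9me3 overlapped 29.2 to 31.3% of FGR-only regions in FGR and 20.8 to 23.2% in Ctrl, against 6.9 to 8.83% of all merged regions in Ctrl. At the 2106 regions with H3K9me3 in all 3 FGR lists, a weak Ctrl call lay at 61.9, 68.5 and 64.2% in replicates 1 to 3, and at the 6347 with H3K9me3 in no FGR list at 1.97, 2.47 and 1.95%. The places that carried H3K9me3 in FGR were thus mostly called in Ctrl as well, below the threshold shared by both groups.

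Covered bases within 500 bp of each region were compared with limma, but at the shared threshold the Ctrl lists are so short that regions entered almost only through FGR lists and had to differ. The counts are therefore a description of that threshold. Of 6946 H3K9ac regions tested for H3K9me3, 61.9% had more in FGR and 0.0432% less at an adjusted p under 0.05; among the 2882 FGR-only regions that entered the test 2133 had more and 2 less. In the lists as deposited, which have different thresholds, 113 FGR-only regions had more and 75 less. These were 3.27 and 2.17% of those tested, against 1.27 and 14.3% of all regions tested. Cut to equal length, only 56 could be tested, with 19 more and 2 less. An intergenic region on chromosome 10 from 27818420 to 27825618, the third longest of all, was covered by 6938, 7308 and 7335 bp of H3K9me3 in FGR replicates 1 to 3 and by 0 bp in each Ctrl library, a log2 difference of 7.18 ± 0.09 (SE; limma adjusted p = 2.06e-06). It lay 201229 bp from Lama2, a laminin chain gene, and its H3K9ac fold was 14.9, 10.6, 13.1 and 13.1 in the 4 FGR libraries. Neither H3K27ac nor H3K4me3 was called there in any library. On chromosome 2 from 22001882 to 22007243, 171338 bp from Gpr158, a gene for a receptor of neurons, H3K9me3 covered 5370, 5165 and 5743 bp in FGR and 0 bp in each Ctrl library (log2 difference 6.77 ± 0.09 SE, limma adjusted p = 2.06e-06). Both of these differences kept their direction and passed the test in the lists as deposited, at 2.80 and 5.61.

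The 12 best ranked FGR-only regions differed in make-up from the bulk. All 12 had H3K9me3 in the 3 FGR lists, 9 had H3K4me3 in all 4 FGR lists, 7 had H3K27ac in all 4 FGR lists, and 1 lay inside a gene. Several were called in Ctrl too: 6 had H3K9me3 in a Ctrl list, as 28 of all 9586 FGR-only regions did, 6 had H3K27ac in a Ctrl list, 4 of them in all 4 Ctrl lists, and 2 had H3K4me3 in a Ctrl list. Their summits held 112 to 338 fragments, and the local background there was 11.2 to 62.0 times the lowest of its library. Across all FGR-only regions the median of that ratio was 1.02, and it exceeded 3 at 153 (1.6%). The region inside a gene lay on chromosome 16 from 11143890 to 11144365 in Zc3h7a, which encodes a zinc finger protein. H3K27ac covered 196, 190, 193 and 187 bp there in FGR and 0 bp in each Ctrl library (log2 difference 2.27 ± 0.10 SE, limma adjusted p = 8.71e-06), and H3K4me3 covered 305, 262, 279 and 311 bp in FGR and 0 bp in each Ctrl library (2.76 ± 0.09 SE, limma adjusted p = 7.24e-08). H3K9me3 covered 268, 248 and 255 bp in FGR and 0 bp in Ctrl (2.62 ± 0.09 SE, limma adjusted p = 5.88e-06), so that all 4 marks were called at this place in every FGR library and in no Ctrl library at these thresholds. Whether the raised background bears on these calls was not tested.

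**Figure D2:**
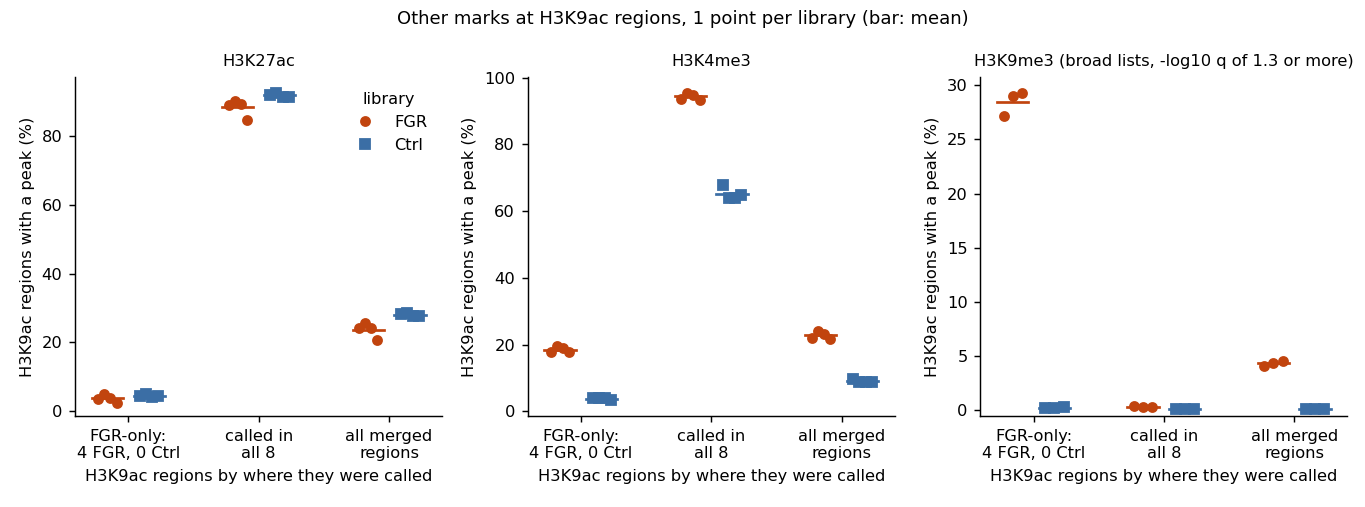
Percent of H3K9ac regions that a peak of each other mark overlaps (y axis), for FGR-only regions, regions called in all 8 lists and all merged regions (x axis), with 1 point per library and the mean as a bar. H3K9me3 overlaps 27.2 to 29.3% of FGR-only regions in FGR libraries and under 0.3% in Ctrl libraries, and H3K27ac overlaps few FGR-only regions in either group.

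H3K27ac, the mark that accompanies H3K9ac at active promoters and enhancers, was scarce at FGR-only regions in both groups. It overlapped 3.66, 5.13, 3.85 and 2.32% of them in FGR replicates 1 to 4 and 4.48, 5.02, 4.21 and 4.33% in Ctrl replicates 1 to 4. The ranges of the 2 groups overlapped. At regions called in all 8 H3K9ac lists the share was 84.8 to 90.3% in FGR and 91.4 to 92.7% in Ctrl, and at all merged regions 20.7 to 25.6% in FGR and 27.6 to 28.6% in Ctrl. No H3K27ac peak of any library lay at 8546 FGR-only regions (89.2%), and 14 had H3K27ac in all 4 FGR lists and no Ctrl list.

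Where H3K27ac was present, its test followed the direction of the whole mark. That direction turned round in 1 of the ways of scaling the lists. Of 53123 H3K9ac regions tested, 0.864% had more H3K27ac in FGR and 59.3% less; of the 998 FGR-only regions that entered, 48 had more and 331 less, with a median log2 difference of −1.0 against −0.93 over all regions tested. With lists of equal length, 25 had more and 398 less. These were 3.0 and 47.7% of those tested, against 0.284 and 68.3% of all regions tested. With lists cut to an equal covered genome, 135 had more and 73 less. These were 32.4 and 17.5% of those tested, against 37.6 and 23.5% of all regions tested. The median over all regions tested was then 1.39, so the split turned round. Leaving out any 1 library left 21 to 32 FGR-only regions with more H3K27ac. Efhd2, a gene for a calcium-binding protein of the cytoskeleton, held the FGR-only region with the smallest adjusted p among those with less H3K27ac, on chromosome 4 from 141862868 to 141863494. H3K27ac covered 0 bp there in each FGR library and 820, 966, 894 and 944 bp in the Ctrl libraries (log2 difference −4.25 ± 0.11 SE, limma adjusted p = 2.69e-06), and a Ctrl H3K9ac peak lay 252 bp away. In Baz2a, which encodes a subunit of a nucleolar remodelling complex, a region on chromosome 10 from 128123110 to 128123950 had 0 bp in each FGR library and 477, 464, 357 and 417 bp in the Ctrl libraries (−3.25 ± 0.12 SE, limma adjusted p = 5.58e-06). These regions thus had H3K9ac peaks in FGR, by the rule, and H3K27ac peaks in Ctrl, where every library was above every FGR library. Too few libraries had a peak at either of them for a test in lists of equal covered genome.

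H3K4me3, the promoter mark, overlapped FGR-only regions more often in FGR than in Ctrl libraries, as it did at H3K9ac regions in general. The share was 17.8, 19.5, 19 and 17.7% in FGR and 4.07, 3.86, 3.95 and 3.29% in Ctrl, against 21.8 to 24.0% in FGR and 8.71 to 9.54% in Ctrl over all merged regions. Of 40367 H3K9ac regions tested, 84.3% had more H3K4me3 in FGR and 0.0917% less; of the 2068 FGR-only regions that entered, 1662 had more and 9 less. In the full lists, the share of FGR-only regions called was near that of all regions, and the median log2 difference was 2.63 against 2.22. The direction again depended on the scaling: with lists of equal length 182 FGR-only regions had more and 106 less, and with lists of equal covered genome 14 had more and 204 less of 442 tested. With equal length 614 FGR-only regions could be tested, so under both scalings most of the 2068 no longer had an H3K4me3 peak in 2 libraries.

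**Figure D3:**
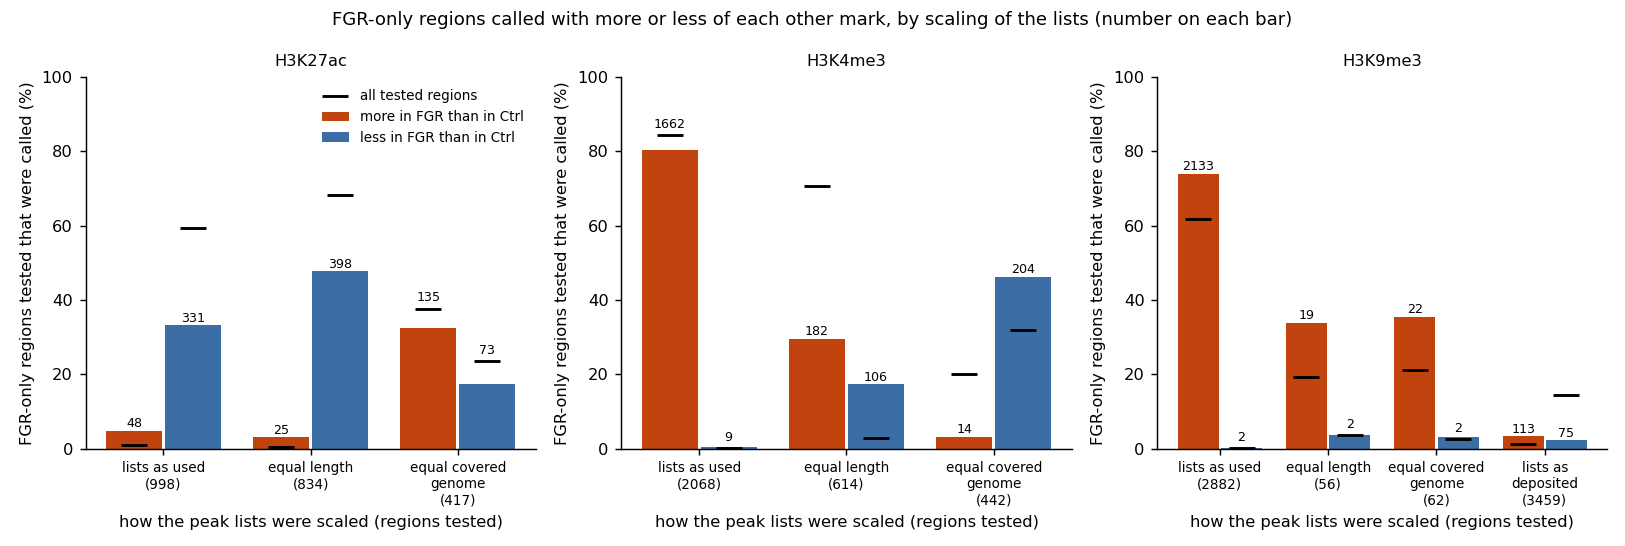
Percent of tested FGR-only regions called with more or less of each mark in FGR than in Ctrl (y axis; limma, adjusted p under 0.05) for each way of scaling the peak lists (x axis, number tested in brackets); numbers on bars are regions called and black lines are the percent over all tested H3K9ac regions. For H3K27ac and H3K4me3 the larger bar changes direction with an equal covered genome, at 135 against 73 and 14 against 204.

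Examples of H3K4me3 at FGR-only regions included genes of cell fate. At Nkx6-1, a homeobox gene of spinal cord and pancreas development (chromosome 5, 101663215 to 101665686), H3K4me3 covered 2152, 2490, 2556 and 2328 bp in FGR and 0 bp in each Ctrl library (log2 difference 5.60 ± 0.09 SE, limma adjusted p = 1.34e-08). At Slitrk5, a gene for a synaptic adhesion protein (chromosome 14, 111674940 to 111676625), it covered 1794, 1761, 1763 and 1693 bp in FGR and 0 bp in each Ctrl library (5.17 ± 0.08 SE, limma adjusted p = 1.34e-08). At Cited1, which encodes a transcriptional coactivator (chromosome X, 102250893 to 102252521), it covered 2257, 2449, 2346 and 2376 bp in FGR and 0 bp in each Ctrl library (5.59 ± 0.08 SE, limma adjusted p = 1.34e-08). The 2 groups did not overlap at any of the 3, and H3K27ac was called at none of them in any library. The FGR H3K4me3 lists held 43175 to 49045 peaks and the Ctrl lists 16598 to 18391. Wherever a whole group had 0 bp, here and at other named regions, entry to the test came through the other group's lists alone. Such an adjusted p describes called peaks at the thresholds of the lists. With lists of equal length, too few libraries had a peak at Nkx6-1 and Slitrk5 for a test, and the difference at Cited1, 2.81, no longer passed. Among the FGR-only regions with less H3K4me3 in FGR were 4 on the unplaced sequence JH584304 and 2 at the start of the assembled chromosome 9, where H3K9me3 was called in most libraries of both groups.

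The share of genes with an FGR-only region at an end differed between gene lists. Of 21883 protein-coding genes, 1787 (8.17%) had an FGR-only region within 1 kb of an end, and 10690 (48.9%) had a region called in all 8 lists there. Of 151 developmental transcription factor genes outside the Hox clusters, 51 (33.8%) had an FGR-only region, and 5 (3.31%) a region of all 8 lists. The shares with an FGR-only region were 25.6% of 39 Hox genes, 31.0% of 29 Wnt and frizzled genes, 27.3% of 22 Eph and ephrin genes, 27.5% of 40 semaphorin, plexin, netrin and slit genes, 21.6% of 116 ion channel genes and 17.0% of 47 glutamate and GABA receptor genes. Lists of microglial and housekeeping functions lay nearer to or below the 8.17% of all genes, with no test of the difference: an FGR-only region lay at 1 of 27 homeostatic microglia genes, 1 of 24 genes of disease-associated microglia, 2 of 28 inflammatory genes, 1 of 18 interferon genes, 0 of 20 antigen presentation genes, 3 of 80 ribosomal protein genes, 1 of 16 housekeeping genes and 0 of 62 replication-dependent histone genes. Regions of all 8 lists lay at ends of 60.7 to 96.8% of genes in these microglial and housekeeping lists. The range was 3.31 to 40.9% in the lists from developmental factors to glutamate and GABA receptors. A place with a Ctrl peak cannot be FGR-only, so the rule itself bears on these shares. How far it does was not tested. The other lists had 13 of 367 Zfp genes, 4 of 1459 olfactory and vomeronasal receptor genes, 0 of 12 genes of border-associated macrophages and 0 of 57 clustered protocadherin genes. Olfactory and vomeronasal receptor genes were low for regions of all 8 lists too, at 0.137%. Of the lists for other cells, 3 of 15 oligodendrocyte lineage genes, 1 of 13 astrocyte genes, 1 of 12 endothelial and mural genes and 1 of 13 lymphocyte and neutrophil genes had an FGR-only region. Elsewhere at their ends, Mbp and Cd79a had H3K9ac in 4 Ctrl lists, Cspg4 in 3 and Sox10 in 2, and S100b and Kcnj8 in none. These lists were chosen with earlier results of the data known, so the order of their shares is a description.

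**Figure D4:**
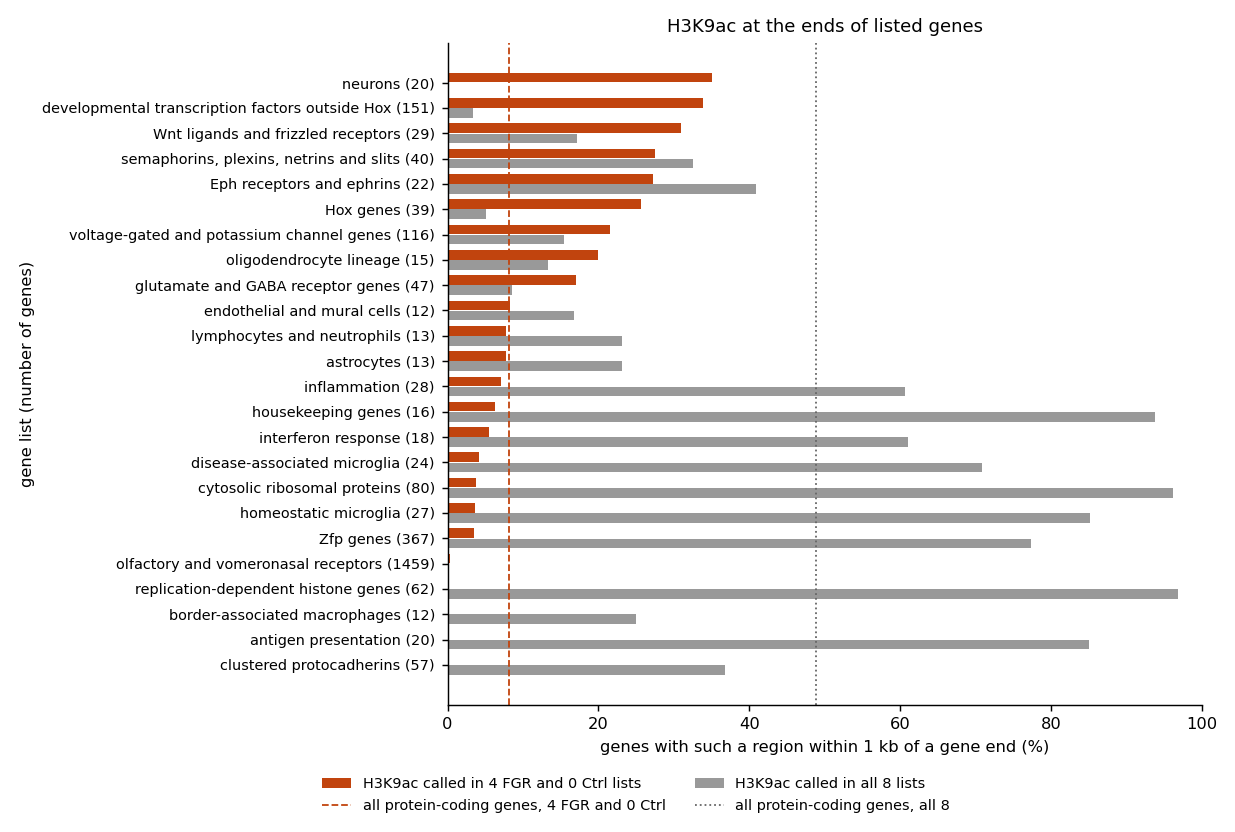
Percent of genes of each list (y axis, number of genes in brackets) with an H3K9ac region within 1 kb of a gene end (x axis), called in 4 FGR and 0 Ctrl lists or in all 8 lists; the vertical lines give the same shares of all protein-coding genes, 8.17 and 48.9%. Neuronal and developmental lists have the longest bars for FGR-only regions, and housekeeping, histone and ribosomal lists for regions of all 8 lists.

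The 54 FGR-only regions at ends of developmental transcription factor genes had no H3K27ac peak in any FGR or Ctrl library. The same was so for 89.2% of all FGR-only regions. H3K4me3 was called in all 4 FGR libraries at 41 of them, in at least 1 Ctrl library at 32 and in all 4 Ctrl libraries at 8, and H3K9me3 in all 3 FGR lists at 0. The best ranked lay over Ascl2, a basic helix-loop-helix factor of trophoblast and intestinal stem cells (chromosome 7, 142967299 to 142969466), whose promoter is printed above. Its H3K9ac fold was 13.7, 12.7, 12.2 and 9.05 in the FGR libraries. H3K4me3 covered 2137, 2056, 2135 and 2101 bp in FGR and 1794, 560, 1291 and 1632 bp in Ctrl, a log2 difference of 0.77 ± 0.34 (SE; limma adjusted p = 0.0649) that did not pass the test and was −4.66 with lists of equal covered genome. All FGR values were above all Ctrl values in the full lists, yet this promoter had H3K4me3 in both groups and H3K9ac calls in FGR alone. The second, at Prrx2, a homeobox gene of limb and craniofacial mesenchyme (chromosome 2, 30845094 to 30845892), had a H3K9ac fold of 11.2, 9.04, 12.9 and 9.19, and H3K4me3 of 164, 540, 495 and 345 bp in FGR and 0, 448, 0 and 0 bp in Ctrl (2.19 ± 0.82 SE, limma adjusted p = 0.0371), with Ctrl replicate 2 within the FGR range. At Meis2, a TALE homeobox gene (chromosome 2, 116066299 to 116067541), H3K4me3 covered 1675, 1619, 1634 and 1616 bp in FGR and 1098, 697, 1237 and 611 bp in Ctrl (0.87 ± 0.23 SE, limma adjusted p = 0.0101), which turned to −4.21 with lists of equal covered genome.

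Hox genes, which set position along the body axis, had 12 FGR-only regions at the ends of 10 genes, among them Hoxc6, Hoxc8, Hoxc9, Hoxd3 and Hoxd13. None of the 12 had H3K27ac in any library, a mark that 89.2% of all FGR-only regions lacked, and 7 had H3K4me3 in all 4 FGR lists. At Hoxd3 (chromosome 2, 74711821 to 74712588), whose promoter is printed above, the H3K9ac fold was 6.83, 4.82, 8.37 and 6.57 in the FGR libraries. H3K4me3 covered 978, 854, 857 and 825 bp there in FGR and 0, 424, 0 and 0 bp in Ctrl (log2 difference 3.40 ± 0.74 SE, limma adjusted p = 0.00442). All FGR values lay above all Ctrl values, and Ctrl replicate 2 was the 1 Ctrl library with a peak.

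Regions at signalling and guidance genes varied in their other marks. H3K4me3 was called in all 4 FGR lists at 6 of 7 regions of Eph and ephrin genes, at 5 of 9 of Wnt and frizzled genes and at 6 of 14 of semaphorin, plexin, netrin and slit genes. H3K27ac was called in no library at regions of the Eph and Wnt lists and in a Ctrl list at 2 of the semaphorin list. It was called in no library at 89.2% of all FGR-only regions. The region over Ephb2, a receptor tyrosine kinase for ephrin-B ligands (chromosome 4, 136834976 to 136837201), had a H3K9ac fold of 13, 9.64, 16.1 and 9.19 in FGR. H3K4me3 covered 1157, 1367, 1340 and 1165 bp there in FGR and 0 bp in each Ctrl library (log2 difference 4.70 ± 0.10 SE, limma adjusted p = 1.38e-08). At Fzd9, a Wnt receptor gene (chromosome 5, 135250297 to 135251541), it covered 936, 1213, 1161 and 1017 bp in FGR and 0, 0, 1090 and 449 bp in Ctrl (2.54 ± 1.06 SE, limma adjusted p = 0.0549), so the groups overlapped and the test was not passed. The value at Fzd9 was −1.96 with lists of equal length and with lists of equal covered genome. At Kcnj11, the pore subunit of a potassium channel closed by ATP (chromosome 7, 46100170 to 46100989), the H3K9ac fold was 13.7, 10.2, 9.65 and 12.5, and H3K4me3 covered 445, 351, 498 and 533 bp in FGR and 0 bp in each Ctrl library (3.33 ± 0.13 SE, limma adjusted p = 2.09e-07).

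Genes that mark neurons were among those with FGR-only regions: 7 of 20 had one, namely Celf4, Eno2, Map2, Nefh, Slc17a7, Syn1 and Tubb3. At another place by an end of the gene, H3K9ac was called in 3 Ctrl lists at Eno2 and in 2 at Tubb3. No Ctrl list had it at the ends of the others. At Slc17a7, which encodes the vesicular glutamate transporter of excitatory neurons, the promoter region on chromosome 7 from 45163809 to 45164237 had a H3K9ac fold of 9.32, 8.44, 8.37 and 7.88 in FGR. H3K4me3 covered 155, 306, 208 and 216 bp there in FGR and 0 bp in each Ctrl library (log2 difference 2.41 ± 0.17 SE, limma adjusted p = 5.89e-06). At Nefh, the heavy neurofilament chain (chromosome 11, 4946942 to 4948221), H3K4me3 covered 1073, 1151, 1093 and 1103 bp in FGR and 305, 0, 0 and 0 bp in Ctrl (3.82 ± 0.65 SE, limma adjusted p = 0.00121). The groups did not overlap at either gene.

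Markers of several other cell types had H3K9ac peaks at more genes in FGR than in Ctrl, and their part in these results was not tested. The FGR lists of H3K9ac and H3K4me3 were longer than those of Ctrl, and the same shares of all genes per library are not given here. H3K9ac peaks lay at 11 to 12 of the 20 neuronal genes in FGR and at 1 to 3 in Ctrl, at 8 to 10 of 13 astrocyte genes in FGR and 3 to 5 in Ctrl, at 8 to 11 of 15 oligodendrocyte lineage genes in FGR and 4 to 7 in Ctrl, at 6 to 10 of 12 endothelial and mural genes in FGR and 3 to 5 in Ctrl, and at 3 to 6 of 13 lymphocyte and neutrophil genes in FGR and 3 to 4 in Ctrl. Border-associated macrophage genes gave 3 to 6 of 12 in FGR and 4 to 6 in Ctrl. For these and for lymphocyte and neutrophil genes, the ranges of FGR and Ctrl overlapped. H3K4me3 peaks lay at 8 to 10 neuronal genes in FGR and 0 to 4 in Ctrl. H3K27ac did not follow: 19 of the 20 neuronal genes had no H3K27ac peak in any library of either group, and 12 of the 15 oligodendrocyte lineage genes had none in FGR and 12 none in Ctrl. The neuronal genes Gad1, Gad2, Neurod6, Slc17a6, Snap25 and Stmn2 had no H3K9ac peak in any FGR library.

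FGR-only regions at genes of microglial identity or response lay at Sall1, Apoe, Cxcl2, Nfkb2 and Ifi35. Those at Cxcl2, a neutrophil chemokine gene, at Nfkb2, a gene of the NF-kappaB family, and at Ifi35, an interferon-induced gene, had none of the other marks in any Ctrl library at these thresholds and lay 12359, 2675 and 4462 bp from a Ctrl H3K9ac peak. In FGR, H3K4me3 covered 432, 656, 351 and 235 bp at Cxcl2 (log2 difference 3.15 ± 0.26 SE, limma adjusted p = 1.69e-05). No other mark was called at Nfkb2 or Ifi35 in any FGR library. The one beside Sall1 (chromosome 8, 89025548 to 89026524) lay 718 bp past the end of the gene away from its promoter, and 1874 bp from a Ctrl H3K9ac peak. H3K27ac covered 0, 238, 297 and 0 bp there in FGR and 1038, 313, 967 and 1114 bp in Ctrl (log2 difference −2.72 ± 0.79 SE, limma adjusted p = 0.0232). The one at Apoe, the lipid carrier that microglia raise in disease (chromosome 7, 19696491 to 19697640), lay 522 bp from a Ctrl H3K9ac peak, with H3K4me3 of 111, 543, 396 and 401 bp in FGR and 0 bp in each Ctrl library (2.90 ± 0.39 SE, limma adjusted p = 0.000304). All Ctrl values of H3K27ac at Sall1 were above all FGR values, and all FGR values of H3K4me3 at Apoe were above those of Ctrl.

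Several large genes held many FGR-only regions. In all, 4083 genes had at least 1 at an end or inside, and 481 had 3 or more. Gse1, a gene for a subunit of a deacetylase and demethylase complex, had 20 over 353 kb on chromosome 8. Prex1, an activator of Rac in myeloid cells, had 11, Cbfa2t3, a corepressor of blood development, had 10, and 2900026A02Rik had 10. Of the 20 regions of Gse1, 1 had H3K4me3 in all 4 FGR lists, none had H3K9me3 in all 3 FGR lists and 1 had H3K27ac in a Ctrl list, and of the 11 of Prex1, 9 had H3K27ac in a Ctrl list and 1 in all 4 FGR lists. Regions in genes of this kind thus carried few other marks in FGR. Within 10 kb of another FGR-only region lay 3084 (32.2%).

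Among promoter windows, from 250 bases before to 50 after a RefSeq gene start, 861 of 21262 were overlapped by an FGR-only region. Their median GC content was 64.0% and their median ratio of observed to expected CpG 0.647, against 62.0% and 0.795 for the 10439 windows overlapped by regions of all 8 lists and 56.3% and 0.567 for all windows. The 515 windows under FGR-only regions with H3K4me3 in all 4 FGR lists had a ratio of 0.734, and 74.4% of them were above 0.6. The 230 without H3K4me3 or H3K9me3 in any FGR list had a ratio of 0.308, and 21.3% were above 0.6. FGR-only promoters with H3K4me3 were thus near the CpG content of shared promoters, and those without were below that of all promoters.

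**Figure D5:**
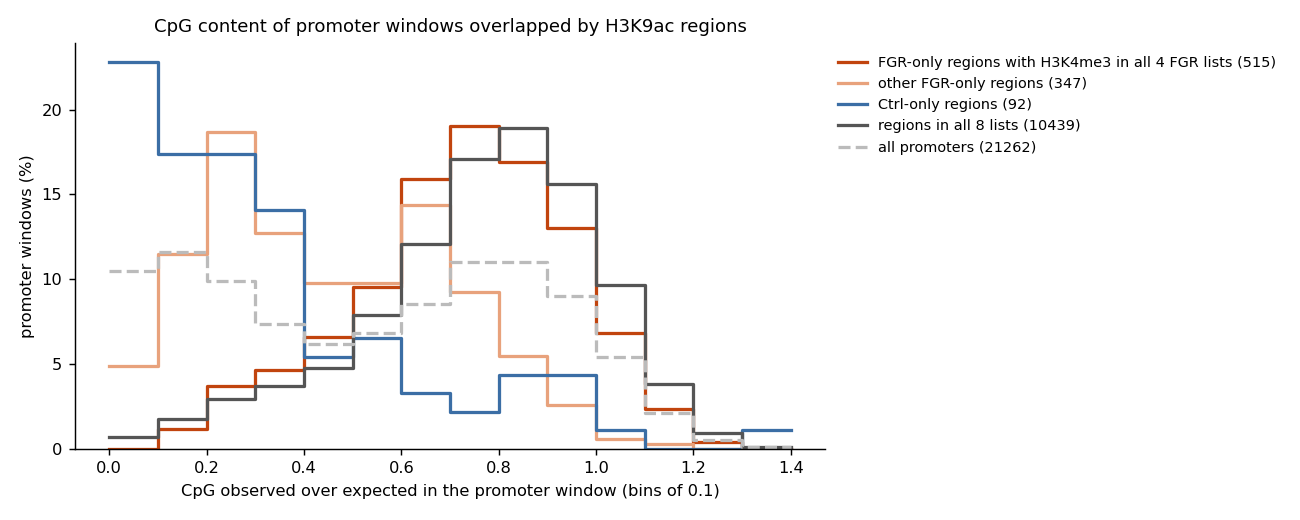
Distribution of the ratio of observed to expected CpG (x axis, bins of 0.1) in promoter windows overlapped by each set of H3K9ac regions (y axis, percent of windows, number in brackets). Windows under FGR-only regions with H3K4me3 peak between 0.7 and 0.8, where 19% of them fall, and those under other FGR-only regions between 0.2 and 0.3, with 18.7%.

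Short motifs were searched on both strands of the same windows, as a description of their letters. The GC box GGGCGG was found in 68.5% of windows under FGR-only regions, 68.1% of those under regions of all 8 lists and 46.2% of all windows. The ETS sequence CCGGAAGT was in 1.05, 9.62 and 5.15% of these windows in the same order, and CCAAT in 29.5, 38.5 and 38.2%. The sequence GAGGAAGT, a site of PU.1, the leading ETS factor of macrophages, was in 1.97% of windows under FGR-only regions, 3.0% of those under regions of all 8 lists and 3.13% of all windows. FGR-only promoters thus shared the GC box content of the common promoters and had a lower share of windows with the ETS sequence; the ETS and PU.1 sequences share the letters GGAAGT.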

How the data were processed

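Peak lists were deposited for 32 libraries of 4 marks, 4 per mark and group, and the inputs were left out. The submitters' processing notes list mm10 as build and, without saying what each did, MACS2 2.2.7.1 and Bowtie2 2.4.5 beside DiffBind 3.12.0, SAMtools 1.3.1 and Trim Galore 0.6.5. Each deposited peak carries the authors' fold enrichment, a ratio to local background, with a p-value and a q-value, both deposited as −log10. Lists were narrow except for H3K9me3 replicates 1 to 3, which were broad. Options of the peak caller are not given. Read counts were not used here and depth is unknown; pileup and background were solved from fold and −log10 p, with background in fragments. Ctrl H3K9me3 lists reach −log10 q values of 0, so broad lists were cut at a −log10 q of 1.3.

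Overlapping or touching H3K9ac peaks were merged. For every merged region, the bases under peaks of another mark within 500 bp were compared as log2(bp + 50) with limma 3.58.1 in R 4.3.3, two-sided, with Benjamini-Hochberg adjustment over all regions in which at least 2 libraries had a peak and a threshold of 0.05. Folds are on that scale. The code was tested on simulated data. Genes were 21883 protein-coding genes of RefSeq GRCm38.p6; their table gives spans only, so exons and introns were not told apart. Strand came from the RefSeq promoter table, matched by gene ID to 17491 genes. No genome was used, so promoter sequences replace the planned sequence around summits. Members and lists were chosen with earlier results of these data known. Named are the 12 best ranked and 6 longest regions, the 4 best ranked at ends of each list's genes, the 8 with the smallest adjusted p per mark and direction, and the 8 genes with most regions; of these, examples are printed, and some are not reported here. Alternatives were lists of equal length or equal covered genome, a −log10 q of at least 3, no flank, no filter, 200 bp added in place of 50, a replicate block and each library left out. Analyses ran in Python 3.11.15 with pandas 2.3.3 and numpy 2.4.6. Replicate numbers did not pair the libraries (correlations of deviations were near 0).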

Additional observations from a re-analysis of the deposited data

Results flagged for a closer look

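The narrow H3K9me3 lists of replicate 4 were left out of the tests because the other lists of that mark were broad. They overlapped 25.2% of FGR-only regions in FGR and 0.167% in Ctrl, against 3.3 and 0.0422% of all merged regions. The FGR list held 11204 peaks and the Ctrl list 257, so list length and group cannot be told apart in these data outside the comparisons. At 3 regions 1 library stood apart from the other 3 of its group, which chance gives in about 1 of 20 groups. H3K27ac at the FGR-only region in Tmem267 on chromosome 13 covered 154, 155, 153 and 166 bp in FGR, with replicate 4 high at 166 bp, and 0 bp in each Ctrl library. At the region on chromosome 15 from 75086526 to 75086963 it covered 312, 497, 300 and 331 bp in FGR, with replicate 2 high at 497 bp, and 0 bp in each Ctrl library. H3K4me3 at the region on chromosome 13 from 74528477 to 74530882 covered 0 bp in each FGR library and 331, 339, 295 and 0 bp in Ctrl, with replicate 4 low at 0 bp.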

How the results depend on the processing

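Scaling to an equal covered genome turned the direction for H3K27ac and H3K4me3, and scaling to equal length did not. With lists of equal length, FGR-only regions numbered 4060; 25 had more H3K27ac in FGR, 182 had more and 106 less H3K4me3, and 19 had more H3K9me3. With an equal covered genome, 135 had more and 73 less H3K27ac, 14 more and 204 less H3K4me3, and 22 more H3K9me3. In the lists as deposited 113 had more and 75 less H3K9me3. Without a flank 164 had less H3K27ac and 1 less H3K9me3; with no filter 20 had more and 159 less H3K27ac, 2 less H3K4me3 and 1 less H3K9me3. With at least 50% of a region covered, 5846 regions were left. The share at a gene end was 26.0% within 2.5 kb and 10.5% for gene starts alone. A replicate block left 21 regions with more H3K27ac and 1 with less H3K9me3; the numbers do not pair the libraries.

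Leaving out 1 library gave 21 to 32 regions with more H3K27ac, 1 to 2 with less H3K9me3 and 9783 to 14489 FGR-only regions, the highest without FGR replicate 3, where a looser rule alone raises the number. The counts not given here stayed within 1.5 times. Alternatives added later, chosen after seeing the data, left 9509 regions on chromosomes 1 to 19 and X and 8544 over 1 kb from any Ctrl H3K9ac peak.

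Of 1966 recomputed values at named regions, 1802 kept their direction and side of the threshold, 112 lost it, 31 gained it and 21 reversed. Values that could no longer be tested are not among the 1966, so the share kept is an upper view. With equal length and with an equal covered genome, these included H3K4me3 at Nkx6-1, Slitrk5, Ephb2, Kcnj11, Slc17a7, Nefh, Hoxd3, Apoe and Cxcl2. The log2 difference of H3K4me3 reversed with an equal covered genome at Ascl2 (−4.66), Meis2 (−4.21), Fzd3 (−1.70), Fzd9 (−1.96) and Wnt10a (−2.77), and with equal length at Fzd9 (−1.96), Wnt10a (−2.77) and Ntn4 (−2.43). H3K27ac reversed with an equal covered genome at the region 7328 bp from Tmem196 (2.76) and at 3006385 to 3007296 of chromosome 9 (3.29), and H3K9me3 in the lists as deposited at the region 10835 bp from Vsig1 (−0.60). Reversals past the threshold neither before nor after were those at Fzd9 and, for H3K9me3, at Tmem267 (−2.91 with equal length and with equal covered genome, −0.17 as deposited, −0.24 without Ctrl replicate 1 and up to 2.10 without another library) and 21198 bp from Ly6c2 (−0.06 as deposited); for H3K27ac, 60809 bp from Axin2 (−0.28 to 0.16 without 1 library) and at a region of JH584304 (−0.07 without a flank); and for H3K4me3, 163224 bp from Tcte2 (−1.41 to 0.14 without 1 library, above 0 without FGR replicate 2). The cause was not tested. Depth is unknown, and a place without a peak is not a place without the mark.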

Other observations

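The longest FGR-only region inside a gene lay in Ahnak2, a gene for a large scaffold protein, on chromosome 12 from 112775792 to 112784772. Its H3K9ac fold was 16.2, 17.5, 16.0 and 17.6 in FGR, H3K9me3 covered 2198, 2713 and 3892 bp in FGR replicates 1 to 3 and 0 bp in each Ctrl library (log2 difference 5.86 ± 0.23 SE, limma adjusted p = 1.04e-05), and neither H3K27ac nor H3K4me3 was called in any library. At the vomeronasal receptor gene Vmn1r48, a region on chromosome 6 from 90033539 to 90035866 had H3K9me3 of 2072, 1886 and 2681 bp in FGR and 0 bp in each Ctrl library (5.48 ± 0.16 SE, limma adjusted p = 4.00e-06), with a H3K9ac fold of 8.07, 9.04, 12.2 and 9.19 in FGR. Both lost the call in the lists as deposited.

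Zfp628, a zinc finger gene, had a region (chromosome 7, 4920779 to 4921851) with opposite differences of 2 marks. Each followed its mark over all H3K9ac regions tested, of which 59.3% had less H3K27ac and 84.3% more H3K4me3 in FGR. H3K27ac covered 0 bp in each FGR library and 473, 708, 845 and 465 bp in Ctrl (−3.71 ± 0.20 SE, limma adjusted p = 2.88e-05), while H3K4me3 covered 352, 329, 545 and 475 bp in FGR and 0 bp in each Ctrl library (3.22 ± 0.16 SE, limma adjusted p = 7.75e-07). At Gapdh, a glycolytic gene whose end is shared with Iffo1, the FGR-only region on chromosome 6 from 125161409 to 125162652 had H3K27ac of 0, 15, 0 and 0 bp in FGR and 652, 974, 959 and 1354 bp in Ctrl (−4.23 ± 0.23 SE, limma adjusted p = 2.40e-05) and lay 145 bp from a Ctrl H3K9ac peak.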
